A study of Homo sapiens with 9 samples.

Results

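Death receptors are surface proteins that start apoptosis from outside the cell, and caspases are the proteases that carry it out. The 8 genes described here are the receptors FAS, TNFRSF10A, TNFRSF10B and TNFRSF10D, the adaptor FADD, the initiator caspases CASP8 and CASP9, and APAF1, the scaffold that activates caspase-9. They were taken by gene symbol from a table of 20463 annotated genes. Of the 8 genes, 7 had enough reads to be tested, while TNFRSF10D did not pass the filter on low counts.

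The transcripts were measured by mRNA sequencing in A375, an established line of human melanoma cells with an activated BRAF gene, so all libraries share 1 genetic background. Cells were left without drug (control, 3 libraries) or kept for 48 h with salvianolic acid B (SalB, a phenolic acid of the herb Salvia miltiorrhiza). The SalB dose was 100 µM (3 libraries) or 200 µM (3 libraries). The treatment label of the control, untreated, gives no time. The labels call the libraries of a group biological replicates, and for the control they name no vehicle. Whole-number counts were deposited, and levels are given here as CPM, counts scaled to a common library size after TMM normalization.

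When a ligand such as Fas ligand or TRAIL (TNFSF10) binds its receptor, the receptor's intracellular death domain recruits FADD, which in turn gathers and activates pro-caspase-8. FAS is the receptor for Fas ligand, TNFRSF10A and TNFRSF10B are the death-inducing TRAIL receptors (DR4 and DR5), and TNFRSF10D is a TRAIL receptor with a truncated death domain that does not pass on the death signal. In the mitochondrial arm, cytochrome c released into the cytosol assembles APAF1 into the apoptosome, which activates caspase-9, and both arms lead to further caspases that cut cell proteins.

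All 8 genes are protein-coding, with positions here on GRCh38 (GENCODE v29 annotation). FAS (ENSG00000026103) spans chr10:88990582-89015785 on the plus strand, CASP8 (ENSG00000064012) chr2:201233443-201287711 on the plus strand, and CASP9 (ENSG00000132906) chr1:15490832-15526534 on the minus strand. APAF1 (ENSG00000120868) spans chr12:98645141-98735433 and FADD (ENSG00000168040) chr11:70203163-70207390, both on the plus strand. For FADD, 54.9% of the exon length is overlapped by an antisense gene, AP000879.1; no source used here gives the strand setting of the counting, so reads of the antisense RNA could not be told apart from those of FADD. For the others the largest such overlap is 9.48% of the exons (APAF1, with ANKS1B, which itself had 2 to 17 counts per library).

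All of the tested genes lay below control in every library at 100 µM, as did 34.7% of all 13968 genes tested. For 4 of them the DNA before a RefSeq start, the start nearest to the gene's annotated one, is shown here. Bases in GENCODE exons are left out, and the DNA runs 5′ to 3′ on the strand of the gene (RefSeq, GRCh38.p14). Capitals mark an AP-1 match (TGANTCA) in FAS at chr10:88990548-88990581 (plus strand), an Sp1 match in FADD at chr11:70203046-70203162 (plus strand; GGGCGG, here read on the other strand), a GAS match (TTCNNNGAA) and an Sp1 match in CASP8 at chr2:201233213-201233442 (plus strand), and Sp1 matches and 1 p53 half-site match in CASP9 at chr1:15524890-15525040 (minus strand). Each stretch begins 250 bases before its RefSeq start, and all 4 of these starts lie inside the gene as GENCODE draws it. The CASP9 stretch lies inside the gene too, and the other stretches end right before the annotated gene and so short of the RefSeq start.
FAS: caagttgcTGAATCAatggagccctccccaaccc
FADD: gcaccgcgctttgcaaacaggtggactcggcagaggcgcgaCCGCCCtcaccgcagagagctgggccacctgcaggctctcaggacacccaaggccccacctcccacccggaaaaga
CASP8: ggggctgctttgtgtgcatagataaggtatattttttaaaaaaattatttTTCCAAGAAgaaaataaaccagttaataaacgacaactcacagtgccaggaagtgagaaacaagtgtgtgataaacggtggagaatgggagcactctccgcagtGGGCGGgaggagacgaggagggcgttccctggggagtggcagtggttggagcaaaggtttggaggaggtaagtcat
CASP9: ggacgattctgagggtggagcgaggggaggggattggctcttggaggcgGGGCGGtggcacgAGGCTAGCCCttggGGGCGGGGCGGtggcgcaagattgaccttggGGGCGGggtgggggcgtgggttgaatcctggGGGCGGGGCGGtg

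The whole window searched was the 250 bases before the RefSeq start nearest to the annotated one, and the 5 genes FAS, FADD, CASP8, CASP9 and APAF1 each had one. By base composition CASP8 stood apart, with 45.6% GC and 6 CpG dinucleotides, whereas the windows of FAS, FADD, CASP9 and APAF1 had 62.8%, 68.8%, 71.6% and 73.6% GC and 14, 32, 25 and 38 CpGs. The medians over all windows were 58% GC and 11 CpGs. Each of the 5 windows held at least 1 Sp1 match, as did 42.6% of 35116 RefSeq windows searched on both strands. AP-1 and GAS matches each stood in 6.57% of all windows, and the p53 half-site in 5.57%. No NF-kB match (in 9.96% of all windows) or ISRE match (in 3.02%) stood in the nearest window of any of the 5 genes. Windows at further starts held 1 NF-kB and 1 p53 half-site match for FAS, and 1 AP-1 and 1 p53 half-site match for CASP8. These matches describe letters in a window and were not tied to any binding.

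Depth was even, at 27348621 to 30629685 counts per library, and 13968 genes were tested. The melanocyte lineage markers SOX10, MITF and S100B were expressed in every group, while the pigment genes PMEL, MLANA, TYR and DCT were near 0 and 1 of 5 leukocyte markers (LYZ) was over 1 CPM. Of 4 epithelial markers KRT8 and KRT18 were over 1 CPM, while EPCAM and CDH1 were near 0, and the 4 summed to 234 to 243 CPM in control, 310 to 342 CPM at 100 µM and 298 to 395 CPM at 200 µM. The 5 fibroblast and endothelial markers summed to 16.7 to 17.6 CPM in control, 26.6 to 29.8 CPM at 100 µM and 14.1 to 16.2 CPM at 200 µM, with 2, 4 and 3 of them over 1 CPM. The part of these markers in the results was not tested. The third library at 200 µM stood apart. Its mitochondrially encoded mRNAs took 4.69% of counts, against 1.81% and 1.85% in the other 200 µM libraries; the share was 2.09% to 2.29% in control and 2.83% to 3.11% at 100 µM. The gap in level between GC-rich and GC-poor genes (those in the top and bottom 12.5% by GC content, log2, relative to the control mean) was -0.29 in this library, whereas it was 0.56 and 1.02 in the other libraries of its group, -0.16 to 0.18 in control and 0.71 to 0.98 at 100 µM. Values of the 7 tested genes at 200 µM are therefore given with and without it; the part of the mitochondrial share in them was not tested.

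Per length, FADD was the most abundant of the 8 transcripts in control, at 56 ± 2.19 FPKM (CPM divided by exon length in kilobases, computed here; SD, n = 3). TNFRSF10B followed at 31 ± 1.26 FPKM and CASP8 at 10.4 ± 0.352 FPKM. APAF1 at 8.69 ± 0.497 FPKM and FAS at 8.58 ± 0.122 FPKM did not differ beyond their spread, and TNFRSF10A (4.66 ± 0.0697 FPKM) and CASP9 (4.23 ± 0.158 FPKM) came last among those detected. At 100 µM the order of the first 4 was the same, with FADD at 39.8, TNFRSF10B at 20.2, CASP8 at 8.49 and APAF1 at 6.43 FPKM, followed by FAS at 5.23, CASP9 at 3.42 and TNFRSF10A at 3.14 FPKM. At 200 µM TNFRSF10A stood at 9.44 ± 1.56 FPKM, level within its spread with FAS at 10.1 ± 2.11 FPKM and above CASP9 at 3.66 ± 0.559 FPKM.

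**Figure D1:**
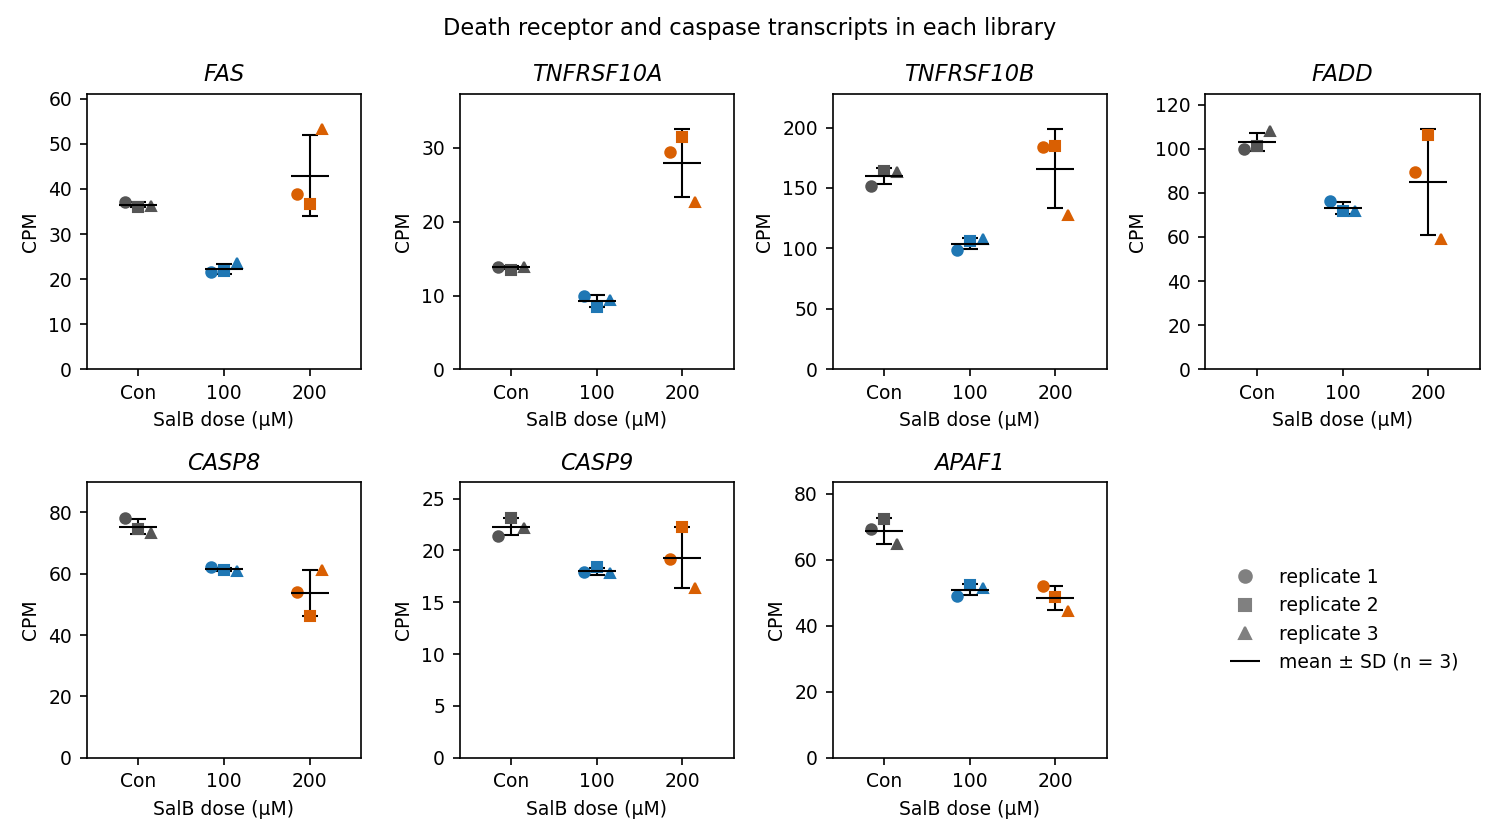
CPM of the 7 tested genes in each library (points; shapes are replicates), with the group mean and SD (lines and whiskers), for control (Con), SalB 100 µM and SalB 200 µM, 3 libraries each; each panel has its own axis from 0. For all 7 genes, as for 34.7% of all genes tested, the 100 µM libraries sit below the control libraries. TNFRSF10A is the gene whose 200 µM libraries all lie above both other groups.

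At 100 µM, 5 of the 7 tested genes fell against control and none rose: FAS, TNFRSF10A, TNFRSF10B, CASP8 and APAF1. Of all 13968 genes tested, 37.1% were called at an adjusted p under 0.05 in this comparison, 18.9% as higher and 18.2% as lower. The median log2 fold change was -0.49 over the 7 genes and -0.01 over all genes. All 7 had their 3 SalB libraries below the 3 control libraries, as did 34.7% of all genes, and 67% of all genes had groups without overlap in either direction, 32.3% with the 100 µM libraries higher. FADD and CASP9, which also lay lower, missed the threshold with adjusted p-values of 0.0557 and 0.0681 (edgeR quasi-likelihood test).

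At 200 µM, TNFRSF10A rose against control and CASP8 and APAF1 fell, so 1 of 7 was higher and 2 were lower, where 19.8% of all genes were called as higher and 17.5% as lower (37.3% in all). The median was -0.21 over the 7 genes and 0 over all genes. These 3 were also the genes whose groups did not overlap, where 48.8% of all genes had none, 24.4% higher and 24.5% lower. Between the doses, the 3 receptors FAS, TNFRSF10A and TNFRSF10B were higher at 200 µM than at 100 µM and none of the 7 was lower. In that comparison 44.4% of all genes were called, 22.4% as higher and 21.9% as lower, and the median was 0.21 over the 7 genes and -0.01 over all genes. The same 3 receptors had groups without overlap, as did 53.3% of all genes, 25.4% higher and 27.8% lower. The comparisons share libraries and are not independent of each other. In bulk RNA, fewer cells with a transcript and less of it per cell cannot be told apart.

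**Figure D2:**
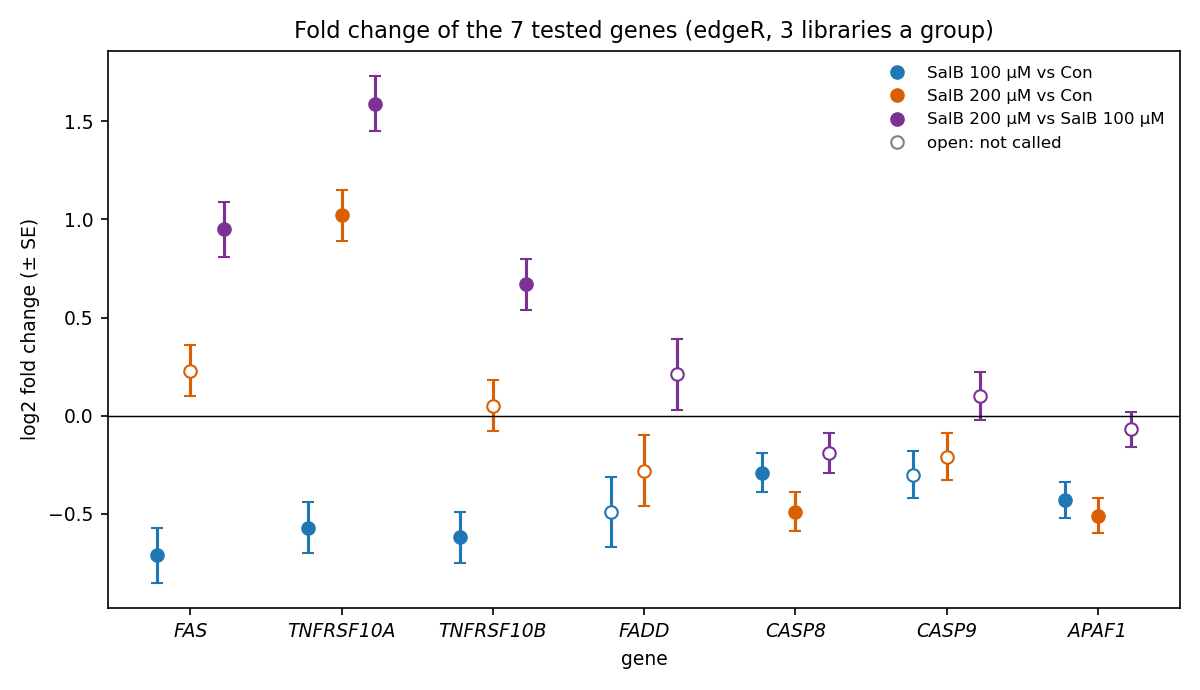
Log2 fold change ± SE (edgeR) of the 7 tested genes in the 3 comparisons; filled points passed an adjusted p of 0.05. The receptors lie below 0 at 100 µM against control and above 0 at 200 µM against 100 µM, while CASP8 and APAF1 lie below 0 at both doses against control.

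FAS, the Fas ligand receptor, had 37.1, 36.1 and 36.3 CPM in the control libraries, 21.5, 21.7 and 23.5 CPM at 100 µM, and 38.8, 36.7 and 53.2 CPM at 200 µM. All 100 µM libraries lay below the others, and the 200 µM libraries overlapped with control, the third being the highest of the 9. FAS fell by 0.71 ± 0.14 on the log2 scale at 100 µM against control (1.64-fold lower; adjusted p = 0.00355). At 200 µM against control its log2 fold change was 0.23 ± 0.13 (adjusted p = 0.203), and 0.06 without the third library (adjusted p = 0.458). FAS was higher at 200 µM than at 100 µM by 0.95 ± 0.14 (1.93-fold; adjusted p = 0.000521), and by 0.75 without the third library.

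TNFRSF10A (ENSG00000104689, chromosome 8), the TRAIL receptor DR4, had 13.8, 13.5 and 13.9 CPM in control, 9.96, 8.47 and 9.37 CPM at 100 µM, and 29.4, 31.5 and 22.7 CPM at 200 µM. No group overlapped with another, and the third 200 µM library was the lowest of its group but still above every control library. TNFRSF10A was 2.02-fold higher at 200 µM than in control, a log2 fold change of 1.02 ± 0.13 (adjusted p = 0.000429), or 1.16 without the third library. It fell by 0.57 ± 0.13 at 100 µM against control (adjusted p = 0.00968), a call lost when the second 100 µM library was left out (log2 fold change -0.49, adjusted p = 0.0542). It was 3.01-fold higher at 200 µM than at 100 µM (1.59 ± 0.14; adjusted p = 2.27e-05), or by 1.71 on the log2 scale without the third 200 µM library.

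TNFRSF10B (ENSG00000120889, chromosome 8), the TRAIL receptor DR5, had 152, 164 and 163 CPM in control, 99, 106 and 108 CPM at 100 µM, and 184, 185 and 128 CPM at 200 µM. Within the 200 µM group 2 libraries lay above all controls and the third lay below them. TNFRSF10B fell by 0.62 ± 0.13 at 100 µM against control (adjusted p = 0.00646) and was higher by 0.67 ± 0.13 at 200 µM against 100 µM (adjusted p = 0.0033), or by 0.81 without the third 200 µM library. At 200 µM against control the log2 fold change was 0.05 ± 0.13 (adjusted p = 0.791). Without the third library it was 0.22 and was called (adjusted p = 0.0106).

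The TRAIL death receptors were also compared with each other. Within a library, the ratio of TNFRSF10A to TNFRSF10B, in CPM, was 0.16, 0.17 and 0.177 at 200 µM, against 0.0905, 0.0823 and 0.0856 in control. At 100 µM it was 0.101, 0.08 and 0.0866, overlapping with control. The third 200 µM library, which had the lowest TNFRSF10B of its group, had the highest ratio. The mean log2 ratio at 200 µM was 0.97 above control, and the exact two-sided permutation test over libraries gave p = 0.1, the smallest that 3 against 3 libraries allow (0.171 after Benjamini-Hochberg adjustment over the 12 ratio tests). The ratio of FAS to TNFRSF10B was 0.211, 0.199 and 0.415 at 200 µM, against 0.243, 0.22 and 0.223 in control, so the third library alone was high.

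TNFRSF10D (ENSG00000173530, chromosome 8), the TRAIL receptor with the truncated death domain, had 0 counts in all control libraries, 0, 0 and 7 counts at 100 µM, and 0, 9 and 2 counts at 200 µM. A count of 0 allows up to 0.101 to 0.104 CPM in a control library (3 counts). The gene was thus barely detected at this depth in any group and was not tested.

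FADD, the adaptor between receptor and caspase-8, had 100, 101 and 108 CPM in control, 76.5, 71.6 and 71.6 CPM at 100 µM, and 89.6, 106 and 58.9 CPM at 200 µM. The 100 µM libraries all lay below control, and the 200 µM libraries spread across both other groups, with the third the lowest of the 9. The log2 fold change was -0.49 ± 0.18 at 100 µM against control (adjusted p = 0.0557). Without the third 200 µM library, which belongs to neither group but shares the fit, it was -0.47 with an adjusted p of 0.000314. With GC correction and all 9 libraries it was -0.77 (adjusted p = 0.000111). The value at 200 µM against control was -0.28 ± 0.18 (adjusted p = 0.246), or -0.06 without the third library, and at 200 µM against 100 µM 0.21 ± 0.18 (adjusted p = 0.361), or 0.41 without it (adjusted p = 0.0015). Leaving out the second 200 µM library instead moved both values the other way. FADD then stood at -0.47 against control, which was called (edgeR, adjusted p = 0.0411), and at -0.01 between the doses (adjusted p = 0.978).

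CASP8, the initiator caspase of the receptor arm, had 78.2, 74.7 and 73.3 CPM in control, 62.1, 61.4 and 61 CPM at 100 µM, and 54.2, 46.1 and 61.2 CPM at 200 µM. Control lay above every treated library, and the third 200 µM library reached the 100 µM range. CASP8 fell at 200 µM against control by 0.49 ± 0.10 on the log2 scale (1.4-fold lower; adjusted p = 0.00558), and by 0.57 without the third library. At 100 µM it fell by 0.29 ± 0.10, close to the threshold (adjusted p = 0.0496), and 13 of 20 alternative settings (other scaling, filters, tools, corrections or a library left out) lost that call. Among them were the fits without any 1 of the control or 100 µM libraries, or without 200 µM library 1, with log2 fold changes from -0.31 to -0.27 and adjusted p from 0.0778 to 0.151. The value was -0.13 with GC correction, with or without the replicate block (adjusted p = 0.123 and 0.107), and -0.18 with GC and length correction, which kept the call (adjusted p = 0.0431). The log2 fold change between 200 µM and 100 µM was -0.19 ± 0.10 (adjusted p = 0.158), and -0.30 without the third library (adjusted p = 0.00433).

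CASP8 and FADD act in 1 complex. CASP8 relative to FADD, in CPM within a library, was 0.812, 0.858 and 0.852 at 100 µM, against 0.779, 0.74 and 0.68 in control, and the groups did not overlap (exact permutation p = 0.1, adjusted 0.171). At 200 µM the ratio was 0.606, 0.435 and 1.04, a range that took in both other groups.

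APAF1, the apoptosome scaffold, had 69.2, 72.4 and 64.6 CPM in control, 49, 52.2 and 51.4 CPM at 100 µM, and 52.1, 48.6 and 44.6 CPM at 200 µM. Every treated library lay below every control, and the 2 doses overlapped. APAF1 fell by 0.43 ± 0.09 at 100 µM (adjusted p = 0.00439) and by 0.51 ± 0.09 at 200 µM (adjusted p = 0.00188), both against control. Without the third 200 µM library it fell by 0.44 at 200 µM (adjusted p = 0.000391). Between the doses its log2 fold change was -0.07 ± 0.09 (adjusted p = 0.536), or -0.03 without that library (adjusted p = 0.778). At 100 µM the call was lost in all 3 fits with GC correction, with values of -0.16 with GC alone (adjusted p = 0.344), -0.22 with GC and length (adjusted p = 0.187) and -0.16 with GC and the replicate block (adjusted p = 0.309). At 200 µM it was lost with GC alone (-0.33, adjusted p = 0.0525) and kept with GC and length (-0.37, adjusted p = 0.0323) and with GC and the replicate block (-0.34, adjusted p = 0.0391). The transcript is GC-poor (41.2% GC in its exons).

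CASP9, the caspase activated by APAF1, had 21.4, 23.1 and 22.2 CPM in control, 17.9, 18.4 and 17.8 CPM at 100 µM, and 19.2, 22.3 and 16.4 CPM at 200 µM. The 100 µM libraries lay below control and the 200 µM libraries overlapped with both. The log2 fold changes were -0.30 ± 0.12 at 100 µM (adjusted p = 0.0681; -0.48 with GC correction, adjusted p = 0.00109) and -0.21 ± 0.12 at 200 µM (adjusted p = 0.194) against control, and 0.10 ± 0.12 between the doses (adjusted p = 0.529). Without the third 200 µM library the values were -0.09 at 200 µM against control (adjusted p = 0.439) and 0.19 between the doses (adjusted p = 0.0961), and with GC correction the value at 200 µM was -0.31 and was called (adjusted p = 0.00851). Without the second 200 µM library CASP9 stood at -0.33 against control, which was called (edgeR, adjusted p = 0.0397), and at -0.05 between the doses (adjusted p = 0.745). Relative to APAF1, CASP9 stood at 0.368, 0.459 and 0.368 at 200 µM, against 0.31, 0.319 and 0.345 in control, without overlap (exact permutation p = 0.1, adjusted 0.171). At 100 µM the ratio was 0.365, 0.353 and 0.347, also without overlap with control and with the same p-values. CASP9 has 55.0% GC in its exons, against 41.2% for APAF1. With GC correction the log2 fold changes against control were -0.31 for CASP9 and -0.33 for APAF1 at 200 µM, and -0.48 and -0.16 at 100 µM. The part of GC content in these ratios was not tested.

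**Figure D3:**
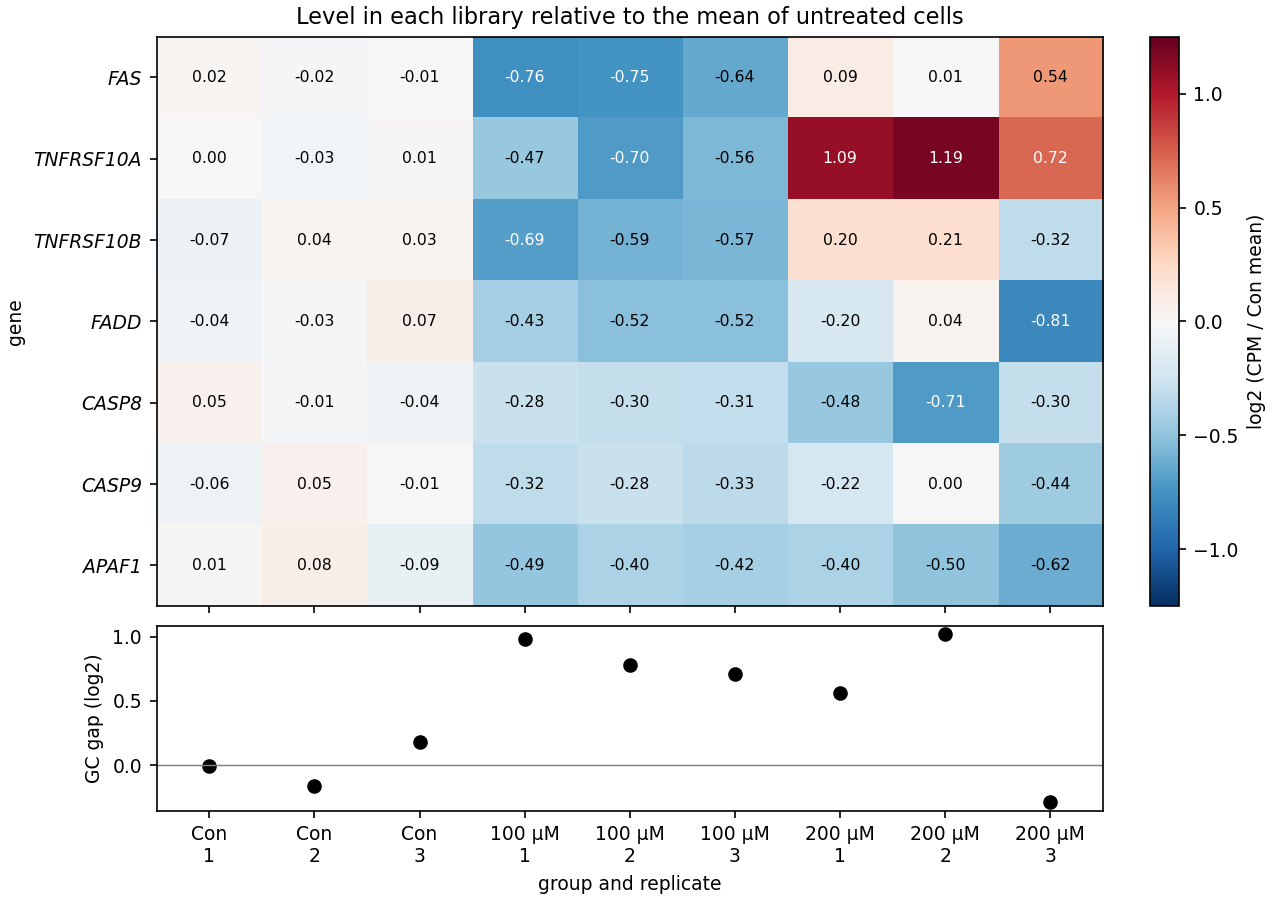
Top, log2 CPM of each tested gene in each library minus the control mean (columns are libraries, rows are genes; red is higher, blue is lower); bottom, the GC gap of each library on the log2 scale. The 100 µM columns are below control for all 7 genes, as for 34.7% of all genes tested. The third 200 µM column departs from the other 2 of its group, with FAS higher, TNFRSF10B and FADD lower, and a GC gap of -0.29.

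**Figure D4:**
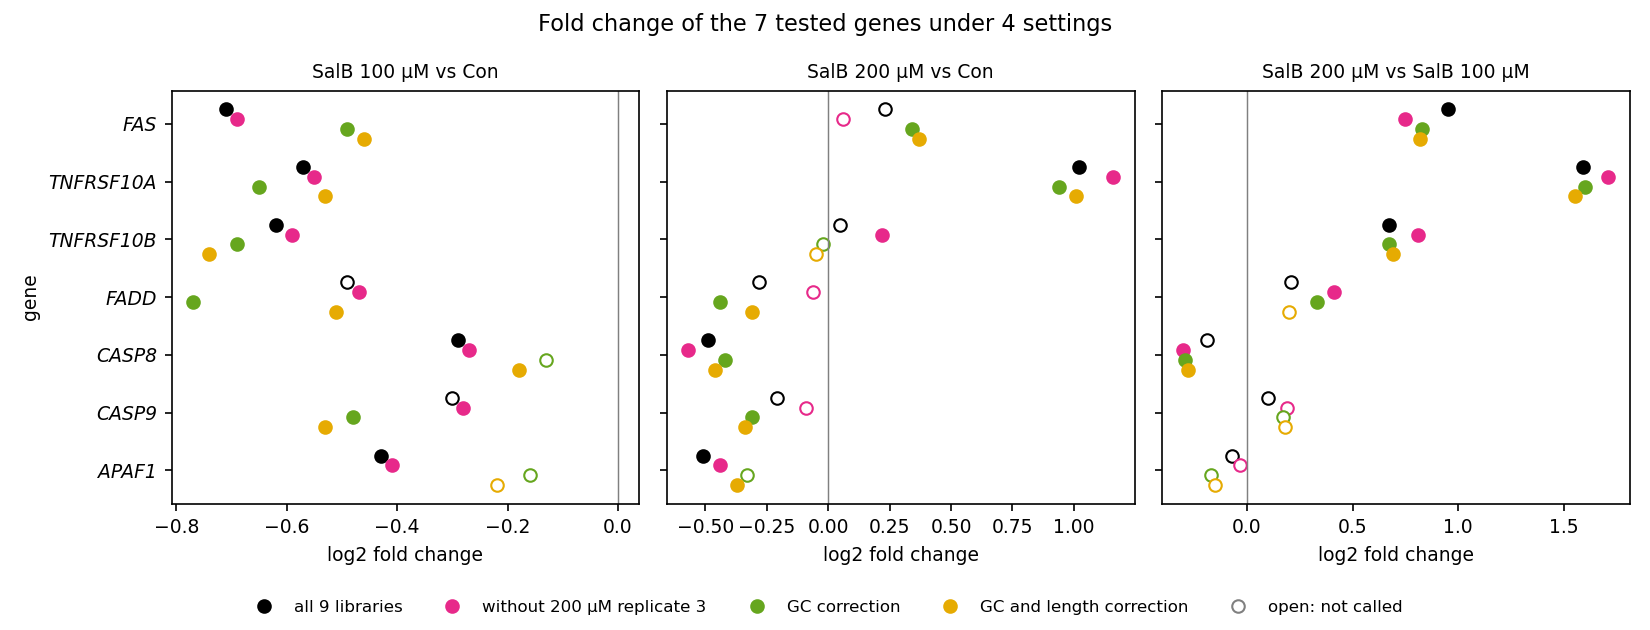
Log2 fold changes of the 7 genes in each comparison with all 9 libraries, without the third 200 µM library, with GC correction, and with GC and length correction; filled points were called at an adjusted p of 0.05. The receptors keep their calls at 100 µM against control and between the doses in all 4 settings, while APAF1 at 100 µM stands at -0.16 with GC correction, not called, against -0.43 with all 9 libraries.

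How alike the genes were across the 9 libraries was measured as the root-mean-square difference of their centred log2 CPM. FADD and CASP9 were the closest pair (0.14), followed by CASP8 with APAF1 and CASP9 with APAF1 (0.15 each). TNFRSF10A was far from all others, from 0.43 (FAS) to 0.81 (CASP8). Among all tested genes, PLK3 (0.082) and CDKN1A (0.112), which encodes the cell cycle inhibitor p21, had the profiles most like TNFRSF10A, and only PLK3 lay within 0.1 of it. FAS was closest to RNF13 (0.067) and SLC39A6 (0.076), TNFRSF10B to ABHD3 (0.05) and NOL3 (0.069), and FADD to IMP3 (0.073) and GUK1 (0.077). Within 0.1 lay 117 genes for CASP8 (NSMCE4A and KMT5B closest), 84 for CASP9 (TALDO1 and MAGEC2) and 76 for APAF1 (SRSF7 and CWF19L1). For FAS, TNFRSF10B and FADD the numbers were 11, 12 and 11. The measure was not scaled by the size of a gene's changes, so a gene that changes little can lie close to many others.

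Around these genes, 53 further genes of the pathway were examined, of which 43 could be tested. At 100 µM against control 10 rose and 11 fell (median log2 fold change -0.13), at 200 µM against control 7 rose and 8 fell (0.05), and at 200 µM against 100 µM 14 were higher and 9 lower (0.13). Over all genes, 37.1%, 37.3% and 44.4% were called in these comparisons. By direction, 18.9%, 19.8% and 22.4% of all genes were called as higher and 18.2%, 17.5% and 21.9% as lower. These shares are also the background for the counts by role below. Without the third 200 µM library, 44 could be tested and the counts became 15 and 13, 11 and 8, and 18 and 9, in a fit that called 56.1%, 53.8% and 54.2% of all genes. The ligands themselves were close to absent from the libraries: FASLG, TNF and LTA had 0 counts in every library, and TNFSF10, which encodes TRAIL, did not pass 0.238 CPM.

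Among the other death and decoy receptors, 3 of 6 tested rose and 2 fell at 100 µM against control, and 2 rose and 2 fell at 200 µM. TNFRSF11B, which encodes the soluble decoy osteoprotegerin that binds TRAIL, averaged 33.8 ± 1.46 CPM in control, 4.96 ± 0.618 CPM at 100 µM and 12.4 ± 3.53 CPM at 200 µM, and fell at both doses (log2 fold changes -2.77 ± 0.20 and -1.45 ± 0.19; adjusted p = 2.01e-05 and 0.000391). NGFR, the p75 neurotrophin receptor, which carries a death domain, averaged 22.2 ± 1.97 CPM in control, 63.5 ± 2.3 CPM at 100 µM and 137 ± 22.9 CPM at 200 µM, and rose at both doses (1.52 ± 0.13 and 2.63 ± 0.13; adjusted p = 4.83e-05 and 2.57e-06). An antisense gene covers 22.3% of the NGFR exons. TNFRSF1A, the main TNF receptor, was higher at 100 µM (0.74 ± 0.11; adjusted p = 0.000848) and at 200 µM (0.35 ± 0.11; adjusted p = 0.0307, a call lost in 10 of 20 settings, among them those without any 1 control library, 100 µM library 2 or 3, or 200 µM library 1 or 2), and TNFRSF21, another death domain receptor, was higher at 100 µM (0.31 ± 0.07; adjusted p = 0.0081) and lower at 200 µM (-0.35 ± 0.07; adjusted p = 0.00381).

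Of the 13 tested genes of the receptor complexes, 5 fell at 100 µM and 2 at 200 µM against control, and none rose. Over all genes, 18.2% and 17.5% were called as lower at these doses and 18.9% and 19.8% as higher. BIRC3, the ubiquitin ligase cIAP2 that is bound to TNF receptor complexes, averaged 136 ± 11 CPM in control, 3.02 ± 0.243 CPM at 100 µM and 89.9 ± 22.8 CPM at 200 µM. It was 45.1-fold lower at 100 µM than in control (-5.49 ± 0.21; adjusted p = 7.66e-07) and 29.8-fold higher at 200 µM than at 100 µM (4.90 ± 0.21; adjusted p = 6.27e-07). BIRC2 (cIAP1) fell by 1.10 ± 0.12 at 100 µM (adjusted p = 0.000217) and CYLD, a deubiquitinase of the same complexes, fell by 0.98 ± 0.15 (adjusted p = 0.00115). At 200 µM against control BIRC3 (-0.60, adjusted p = 0.0203) and BIRC2 (-0.42, adjusted p = 0.0234) were lower, calls lost when the first or the second control library was left out, and for BIRC2 also the third.

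Of 4 other caspases tested, 1 rose and 1 fell at 100 µM, and 1 fell at 200 µM. CASP4, an inflammatory caspase, averaged 43.7 ± 6.88 CPM in control, 25.7 ± 3.19 CPM at 100 µM and 59.6 ± 9.61 CPM at 200 µM (SD, n = 3 each). It fell by 0.77 ± 0.16 at 100 µM (adjusted p = 0.00582) and was higher by 1.21 ± 0.16 at 200 µM than at 100 µM (adjusted p = 0.000351). CASP6, which cuts lamin A, averaged 7.62 ± 1.72 CPM at 200 µM, against 12.2 ± 1.03 CPM in control (-0.68 ± 0.17; adjusted p = 0.0113). CASP2 averaged 37.2 ± 0.561 CPM at 100 µM, against 28.4 ± 1.72 CPM in control (0.39 ± 0.12; adjusted p = 0.0351). That call was lost in 8 of 20 settings, among them those without any 1 control or 100 µM library.

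In the mitochondrial arm, 1 of 8 genes rose and 2 fell at 100 µM, and 1 fell at 200 µM. BID, which caspase-8 cleaves to link both arms, fell by 0.63 ± 0.08 at 100 µM (adjusted p = 0.000541) and was higher by 0.71 ± 0.08 at 200 µM than at 100 µM (adjusted p = 0.000168). CYCS, encoding cytochrome c, fell at both doses, by 0.62 ± 0.12 at 100 µM (adjusted p = 0.00435) and by 0.49 ± 0.12 at 200 µM (adjusted p = 0.0126). AIFM1, encoding apoptosis-inducing factor, rose by 0.55 ± 0.08 at 100 µM (adjusted p = 0.000875).

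Of 4 tested genes on the inhibitor list, 1 rose and 1 fell at 100 µM, and 2 rose and 1 fell at 200 µM. BIRC5, which encodes survivin, averaged 53.8 ± 8.28 CPM at 200 µM, against 147 ± 3.07 CPM in control (-1.45 ± 0.11; adjusted p = 2.25e-05). XIAP, a direct inhibitor of caspases, fell by 0.62 ± 0.15 at 100 µM (adjusted p = 0.0111), a call lost with GC correction (-0.29, adjusted p = 0.0782). BIRC6 was higher by 0.34 ± 0.07 at each dose (adjusted p = 0.00664 at 100 µM and 0.00568 at 200 µM). XAF1, an antagonist of XIAP, had 2.54 to 4.85 CPM at 200 µM, against 0.173 to 0.27 CPM in control and 0 to 0.195 CPM at 100 µM. Its levels in control and at 100 µM were near the floor. It passed the filter on low counts only through its 200 µM libraries. Its call as higher at 200 µM (edgeR, adjusted p = 0.000635), 1 of the 2 counted above, therefore follows in part from that filter. An antisense gene overlaps 38.3% of its exons.

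Of 8 tested genes on the caspase substrate list, 4 rose and none fell at 100 µM, and 3 rose and 1 fell at 200 µM. Over all genes, 18.9% were called as higher and 18.2% as lower at 100 µM, and 19.8% and 17.5% at 200 µM. SPTAN1, encoding alpha-II spectrin, averaged 260 ± 20.1 CPM at 100 µM, against 111 ± 0.404 CPM in control (1.23 ± 0.10; adjusted p = 3.05e-05). PARP1, a DNA repair enzyme, was higher at 100 µM (0.49 ± 0.12; adjusted p = 0.0139), a call lost without the first 100 µM library (0.45, adjusted p = 0.0546). It averaged 200 ± 37.6 CPM at 200 µM, against 271 ± 0.68 CPM in control (-0.44 ± 0.12; adjusted p = 0.0216), a call lost when any 1 of the control libraries was left out. LMNA, encoding lamin A and C, rose by 0.88 ± 0.14 at 200 µM (adjusted p = 0.0013).

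Without the third 200 µM library, the pathway genes named above as called at 200 µM against control were called in the same direction. The log2 fold changes were then 2.77 for NGFR, -1.69 for TNFRSF11B, 0.46 for TNFRSF1A and -0.37 for TNFRSF21. They were -0.77 for BIRC3, -0.52 for BIRC2, -0.52 for CASP6, -0.46 for CYCS and -1.31 for BIRC5. For BIRC6, XAF1, LMNA and PARP1 they were 0.30, 3.65, 1.05 and -0.28. The limit given above for XAF1, which passed the filter on low counts only through its 200 µM libraries, holds here too. Between the doses, BIRC3 stood at 4.70, BID at 0.65 and CASP4 at 1.09, all called.

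**Figure D5:**
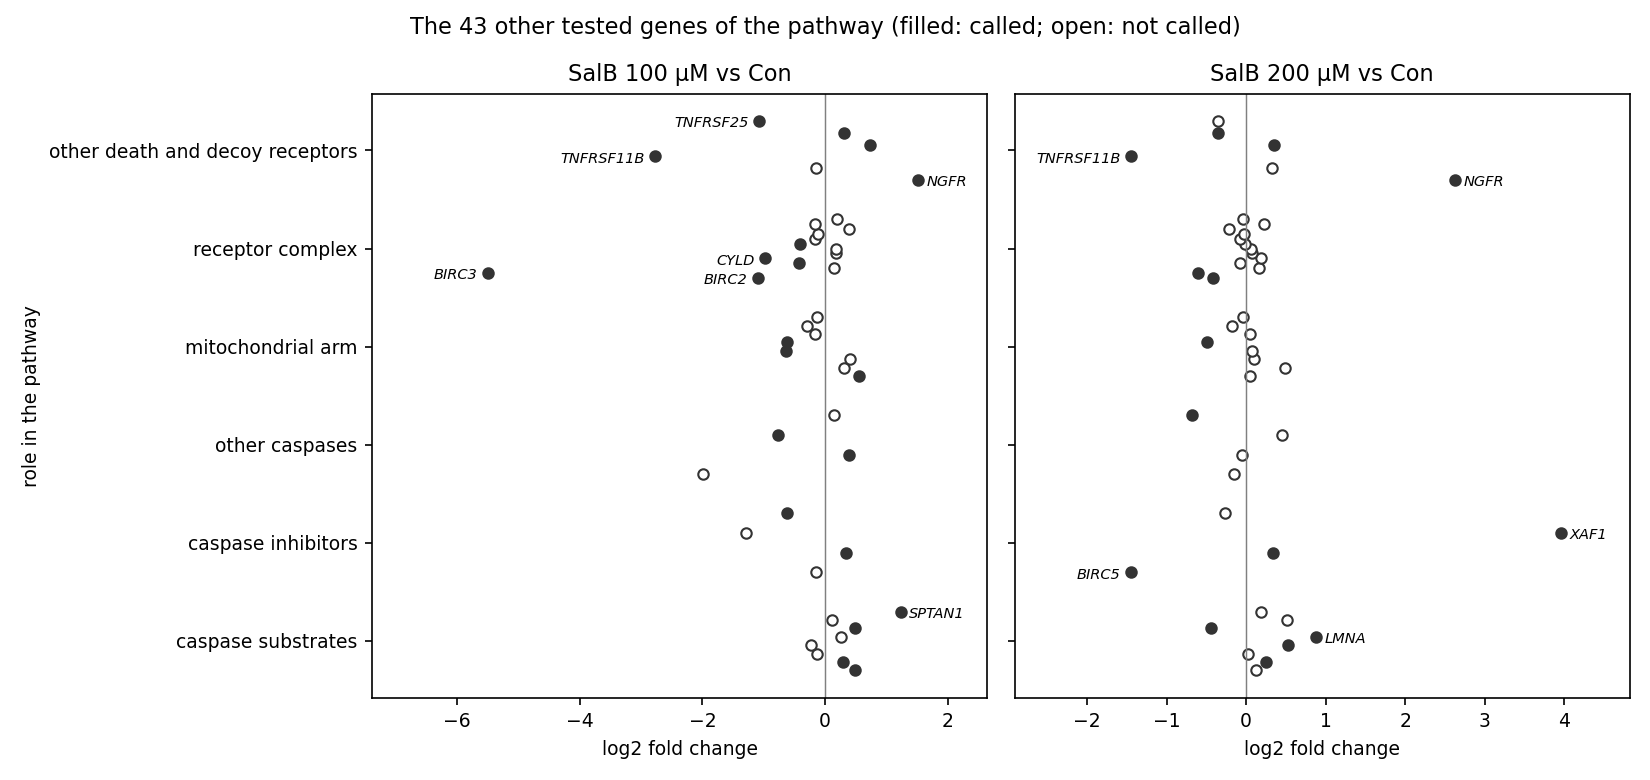
Log2 fold changes of the 43 tested further pathway genes by role, at each dose against control (each panel has its own axis); filled points were called at an adjusted p of 0.05. BIRC3 lies far left at 100 µM (-5.49) and at -0.60 at 200 µM, and NGFR lies right of 0 at both doses.

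The 20 alternatives kept the direction and call of FAS and TNFRSF10B at 100 µM against control, of TNFRSF10A and CASP8 at 200 µM against control, and of FAS, TNFRSF10A and TNFRSF10B between the doses. The count of called genes among the 7 at 100 µM was 3 without the second 100 µM library and 7 without the third 200 µM library. Over all genes the same fits called 3678 and 7943. With all 9 libraries the counts were 5 of the 7 and 5181 of all genes.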

How the data were processed

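Poly-T beads enriched the mRNA in TRIzol-extracted RNA before library preparation with a NEBNext Ultra kit, per the labels' protocols. The submitters' processing notes name FastQC, HISAT2, featureCounts and DESeq2 with GRCh38 (hg38), without versions. No source used here gives the annotation release or the strand setting. The authors deposited whole-number read counts per gene, without normalization. A further table of 100 features held none of the 8 genes and was not used.

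The table had 22605 features, and 2142 transcripts assembled by the authors were left out. The 20463 annotated genes were filtered with filterByExpr, leaving 13968, and fitted in edgeR 4.0.16 (R 4.3.3) with TMM scaling and a robust quasi-likelihood model of all 9 libraries with group as its term (6 residual degrees of freedom). Benjamini-Hochberg adjustment ran over all genes tested, per comparison, and genes were called under 0.05 with no minimum fold. The SE of a log2 fold change is its size divided by the square root of F. Log2 CPM used a prior count of 2. Exact permutation tests were two-sided. All libraries of a group differed beyond sampling noise (chi-square per degree of freedom 7.47 to 155). The fit was tested on simulated counts with the same spread for all genes and no deviant library. That setting differs from these data, so the test cannot show how the fit performs on them. Positions and exon lengths came from GENCODE v29.

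The named genes are all 8, the 2 genes most like each, and, per role of the further pathway genes, up to 3 called genes of smallest p in each comparison. Some genes of the pathway list are not reported here. The genes and lists were chosen with earlier results of these data known. Alternatives changed the scaling, filter, tool (DESeq2 1.42.0), libraries, replicate block, GC and length correction, and assembled transcripts. Counting error alone is covered by the limit of 3 counts for a count of 0.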

Additional observations from a re-analysis of the deposited data

How the results depend on the processing

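Over 20 alternatives, 369 of the values of the 7 genes kept their side of the threshold, 33 passed it anew and 18 lost it. For named pathway genes the numbers were 1306, 23 and 49. Values that stayed uncalled were counted as kept even where their sign changed. TNFRSF10B at 200 µM against control, for example, stood at 0.05 in the main fit and -0.05 with GC and length correction. Among values called in the main fit or the alternative, 1 reversed its sign. That was LMNA at 100 µM against control, -0.21 with GC and length correction (adjusted p = 0.00821) and 0.26 in the main fit (adjusted p = 0.174); the cause was not tested. Among the 7 genes, 3 to 7 were called at 100 µM against control as single libraries were left out, 3 to 5 at 200 µM against control (5 without the second 200 µM library, 4 without the third), and 3 to 5 between the doses (5 without the third 200 µM library). Over all genes, 5354 and 7614 were called at 200 µM against control without the second and the third 200 µM library, against 5211 with all libraries. Between the doses 7668 were called without the third, against 6196. GC correction called 5 at 200 µM against control and 5 between the doses, GC and length correction 6 at 200 µM against control, and the replicate block with GC correction 6 and 5; over all genes these fits called 6662 and 7400, 6600, and 6204 and 6953, against 5211 and 6196; the added calls included FAS (0.34 with GC correction, adjusted p = 0.00394), FADD (-0.44) and CASP9 (-0.31) at 200 µM against control.

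Over all genes at 100 µM against control, 8417 were called with the 2 groups alone and 3469 to 7943 when 1 library was left out (7943 without the third 200 µM library), against 5181. Genes called lower there numbered 1689 and 1632 without the first and second control library and 1613 and 1619 without the first and second 100 µM library, against 2541. No effect shared by same-numbered libraries was seen: their deviations correlated between -0.16 and 0.03 over 9 pairs, and 0 libraries were closest to their own number in both other groups. The labels state no pairing, and these correlations cannot show whether the libraries were paired by design. The replicate block called 4, 3 and 3 of the 7 genes and 4264, 4369 and 5404 of all genes in the 3 comparisons. Scaling alternatives moved the median of all genes by at most 0.09 (log2). Replicate p-values measure the spread between these libraries alone, and the depth left TNFRSF10D and the ligands below what could be tested.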

Other observations

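Further genes of the receptor complexes, chosen after their values were seen, are given here. CFLAR, which encodes FLIP, a caspase-8 homologue that competes for FADD, averaged 31.2 ± 1.18 CPM in control, 23.1 ± 1.73 CPM at 100 µM and 29.5 ± 1.29 CPM at 200 µM (SD, n = 3). It fell by 0.43 ± 0.09 on the log2 scale at 100 µM against control (adjusted p = 0.00513, edgeR) and was higher by 0.35 ± 0.09 at 200 µM than at 100 µM (adjusted p = 0.0108). At 200 µM against control its log2 fold change was -0.08 ± 0.09 (adjusted p = 0.512).

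CASP10, a caspase closely related to caspase-8, was low in every group, at 4.03 ± 0.262 CPM in control, 4.45 ± 0.388 CPM at 100 µM and 4.5 ± 0.359 CPM at 200 µM, and was not called in any comparison. RIPK1, a kinase of the TNF receptor complex, averaged 40.7 ± 0.736 CPM in control, 37.6 ± 1.79 CPM at 100 µM and 40.1 ± 0.162 CPM at 200 µM, and was not called either. RIPK3, the kinase of necroptosis, had 0 counts in every library. Its substrate MLKL averaged 37.4 ± 0.997 CPM in control, 28.2 ± 2.16 CPM at 100 µM and 37.1 ± 6.62 CPM at 200 µM, and fell at 100 µM against control (-0.41 ± 0.13; adjusted p = 0.0322).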
